A study of Mus musculus with 26 samples.

Results

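Hox genes encode homeodomain transcription factors and lie in 4 clusters, Hoxa, Hoxb, Hoxc and Hoxd, in which each gene carries a paralogue number. The genes described here are all those that the array's annotation names Hoxa, Hoxb, Hoxc or Hoxd with a number. There were 33 of them (9 Hoxa, 9 Hoxb, 7 Hoxc and 8 Hoxd) among 18193 genes named by 1 symbol. The RefSeq table held 39 such genes, and the other 6 were not analysed here. The 33 genes were read by 48 probe sets, a probe set being a group of short probes that report 1 transcript level. Each gene was followed by the probe set whose mean over the 26 arrays was highest, and 11 genes had more than 1.

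The series profiled mouse osteosarcoma, a malignant bone-forming tumour. It holds 3 cultures of WT primary osteoblasts (cells that lay down bone), which had been differentiated in vitro and serve as the control, 15 primary osteosarcomas, 4 osteosarcoma cell lines (176, 179, 182 and 213) and 4 secondary tumours. Secondary tumours 29, 64 and 94 are labelled as transplants, and number 66 as tissue of a tumour that a cell line gave rise to. Its title, though, gives number 66 as a cell line; it is kept with the secondary tumours by its source, and without it 7 Hox genes in place of 9 were called between secondary tumours and osteoblasts, Hoxc8 and Hoxa13 being lost. Lines 176, 179 and 182 and all 4 secondary tumours carry the number of a primary tumour in the series. The strain, the ages, the tumour alleles, the skeletal site of each tumour, the bone from which the osteoblasts came and the hosts of the transplants are not given in the labels used here. Whether the 3 osteoblast cultures stem from different animals is not given either, so p-values measure only the spread between these samples, which may be technical.

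During development Hox genes are switched on in the order in which they lie along a cluster, so that cells at successive levels of the trunk and limb carry different combinations of them. The high-numbered genes of Hoxa and Hoxd pattern the limb from shoulder to digits, and Hoxc genes of the middle and high numbers mark thoracic and hindlimb levels. Skeletal cells keep much of this combination in adult life, while bones of the face and the skull vault form largely from cells without it. Hox proteins bind DNA with partner homeodomain proteins of the Pbx and Meis families, and Polycomb and Trithorax complexes hold the clusters silent or active.

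All values below are log2 intensities of single probe sets. A floor of 3.64, the 20th percentile of all deposited values, stands for any lower value, and 5.72 is the median of all values. Bacterial control transcripts spiked into the samples parted the arrays into 3 sets: the 3 osteoblast arrays, a set with 7 primary and the 4 secondary tumours, and a set with 8 primary tumours and the 4 lines. Osteoblasts and their set can therefore not be told apart, and the lines and secondary tumours also lay in different sets. Array medians ran from 44.4 to 58.8 in linear intensity, and the Gapdh 5′ to 3′ ratio, which falls with RNA degradation, from 0.656 to 1.08. Osteoblast markers averaged 10.28 to 10.42 over 9 measured genes in the osteoblast cultures, 8.04 to 11.50 in primary tumours, 7.62 to 9.36 in lines and 9.70 to 11.48 in secondary tumours, with none at the floor throughout a group. Adipocyte markers averaged 11.47 to 11.52 over 6 genes in the osteoblast cultures and between 5.25 and 7.56 in every other array. Cartilage markers averaged 7.84 to 8.15 over 9 genes in the cultures and 5.19 to 7.63 elsewhere. Macrophage markers averaged 5.27 to 5.44 over 12 genes in the cultures, 5.16 to 5.37 in the lines, 8.36 to 10.71 in primary and 8.41 to 10.07 in secondary tumours. C1qa alone was at the floor in every culture, and 4 of the 12 were above 5.72 in every culture. Skeletal muscle markers averaged 4.64 to 4.72 over 10 genes in the cultures, 4.42 to 10.82 in primary tumours, 4.55 to 8.99 in lines and 4.31 to 4.73 in secondary tumours. In the cultures Tnnc2 and Tnni2 were at the floor throughout, and 2 of the 10 were above 5.72 throughout. The part that these cell contents play in the Hox differences was not tested, and in bulk RNA fewer expressing cells and less RNA per cell cannot be told apart.

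More Hox genes were above the median of all values in osteoblasts than in tumours. On an osteoblast array 12 or 13 of the 33 genes lay above it, on a primary tumour 5 to 8 with a median of 6, on a line 7 to 11 with a median of 8, and on a secondary tumour 7 to 9 with a median of 8.5. The osteoblast range did not overlap any other, except when the probe sets of a gene were averaged, with 11 or 12 genes on osteoblast arrays and 5 to 11 on lines. Line 213, with 11, came closest. Hoxb3, Hoxc6 and Hoxd13 were above the median on all 26 arrays, 14 genes were above it on none, and 6 of those 14 were Hoxb genes. The genes that set osteoblasts apart lay in the Hoxa, Hoxc and Hoxd clusters, as the colour map of all 33 genes shows.

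**Figure D1:**
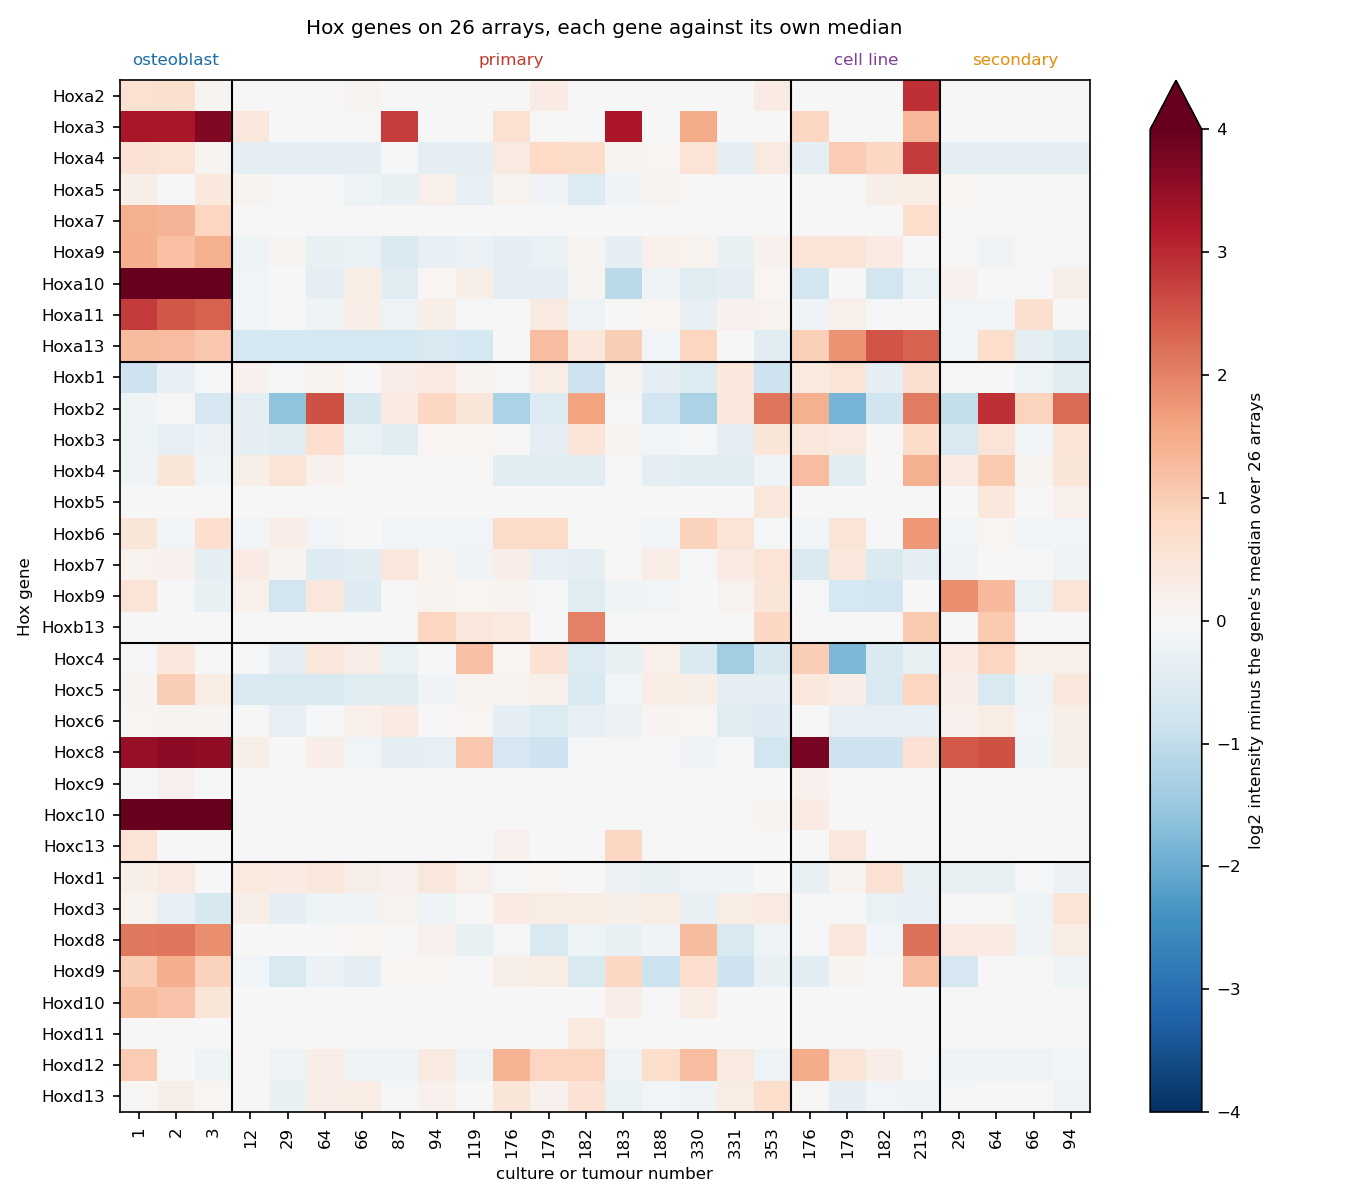
Log2 intensity of each of the 33 Hox genes (rows, ordered by cluster and paralogue number) on each of the 26 arrays (columns, by group), as the difference from that gene's own median over all arrays. Colours saturate at 4, a size that Hoxa10 and Hoxc10 exceed in the osteoblast cultures; red cells in the osteoblast columns mark Hoxa3, Hoxa7, Hoxa9 to Hoxa13, Hoxc8, Hoxc10 and Hoxd8 to Hoxd10.

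On the chosen probe sets, every Hox gene called against osteoblasts was lower, while the median difference of the 9 Hoxb genes was above 0 in each group. Of the 15 genes that passed the filter on dim values, 9 were lower and 0 higher in primary tumours, where 11.9% of the 12887 tested genes were lower, 6.58% higher and 18.5% differed in either direction. In lines 7 were lower and 0 higher (6.64% of all genes lower, 1.58% higher, 8.22% either way), and in secondary tumours 9 and 0 (10.8% lower, 7.71% higher, 18.5% either way). Hoxa3, Hoxa9, Hoxa10, Hoxc10 and Hoxd9 passed the filter only through the osteoblast arrays, which favours a difference for these 5, so the shares of the 15 are no measure of the family. With no filter and all 33 genes, 10 were lower in primary tumours, 8 in lines and 9 in secondary tumours and none was higher, against 8.79%, 4.75% and 7.95% of 18193 genes lower and 4.8%, 1.18% and 5.55% higher. At an unadjusted limma p under 0.05, 1 gene was higher in primary tumours (Hoxd3), 2 in lines (Hoxb1 and Hoxb3) and 1 in secondary tumours (Hoxb9), each by less than 1 on the log2 scale. Every primary tumour was below every culture for 10 of the 33 genes, every line for 9 and every secondary tumour for 15, where 12.9%, 21% and 21.8% of all genes were. The 8 genes lower in all 3 groups were Hoxa3, Hoxa7, Hoxa9, Hoxa10, Hoxa11, Hoxc8, Hoxc10 and Hoxd8. The 3 comparisons share the same 3 cultures.

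The limb-patterning genes Hoxa9, Hoxa10 and Hoxa11, which lie side by side in the Hoxa cluster, were all lower in every tumour group than in osteoblasts. The promoter windows of these neighbours are shown because the 3 genes moved together, with that of Hoxd8, a gene of another cluster that was also lower in all 3 groups. They run from 250 bases before to 50 bases after the start in RefSeq's GRCm38.p6 annotation, and each is written 5′ to 3′ on the strand of its gene. Capitals mark the letters TTTAT or ATAAA, a core that Hox proteins of the high paralogue numbers bind.
Hoxa9, chr6:52227321-52227620, minus strand: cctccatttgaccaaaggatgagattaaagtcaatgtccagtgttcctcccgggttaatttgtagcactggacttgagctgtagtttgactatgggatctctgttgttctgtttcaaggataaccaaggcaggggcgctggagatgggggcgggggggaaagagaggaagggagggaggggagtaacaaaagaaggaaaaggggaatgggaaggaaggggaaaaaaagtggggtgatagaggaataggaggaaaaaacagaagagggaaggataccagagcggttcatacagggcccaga
Hoxa10, chr6:52234890-52235189, minus strand: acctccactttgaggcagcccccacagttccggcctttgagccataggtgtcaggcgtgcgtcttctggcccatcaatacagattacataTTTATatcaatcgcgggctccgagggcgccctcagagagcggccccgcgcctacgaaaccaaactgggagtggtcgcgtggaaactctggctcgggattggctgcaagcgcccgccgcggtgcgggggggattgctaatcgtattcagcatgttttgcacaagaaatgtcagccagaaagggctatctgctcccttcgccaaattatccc
Hoxa10, chr6:52240805-52241104, minus strand: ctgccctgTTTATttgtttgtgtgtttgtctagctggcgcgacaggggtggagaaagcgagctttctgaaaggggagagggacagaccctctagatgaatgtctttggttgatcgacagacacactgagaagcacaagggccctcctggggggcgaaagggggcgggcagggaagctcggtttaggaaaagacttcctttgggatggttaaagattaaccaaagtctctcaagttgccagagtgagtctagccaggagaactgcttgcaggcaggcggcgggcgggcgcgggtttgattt
Hoxa11, chr6:52245761-52246060, minus strand: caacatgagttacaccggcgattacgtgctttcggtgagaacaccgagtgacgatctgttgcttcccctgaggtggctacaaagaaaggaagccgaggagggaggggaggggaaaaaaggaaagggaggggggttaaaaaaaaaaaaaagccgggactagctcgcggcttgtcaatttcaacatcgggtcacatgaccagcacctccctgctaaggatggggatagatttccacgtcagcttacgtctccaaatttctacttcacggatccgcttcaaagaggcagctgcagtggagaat
Hoxd8, chr2:74704365-74704664, plus strand: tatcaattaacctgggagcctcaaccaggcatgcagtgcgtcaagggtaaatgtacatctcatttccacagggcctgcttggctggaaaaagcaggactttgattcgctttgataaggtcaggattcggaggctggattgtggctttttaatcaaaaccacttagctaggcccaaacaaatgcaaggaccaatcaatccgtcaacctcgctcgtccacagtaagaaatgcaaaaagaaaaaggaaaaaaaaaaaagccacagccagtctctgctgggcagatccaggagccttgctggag
Each of the 2 Hoxa10 windows held 1 match, and those of Hoxa9, Hoxa11 and Hoxd8 held none. Searched on both strands, TTTAT lay in 7 of the 21 windows known for 19 of the 33 genes (33.3%) and in 40% of all 32851 windows of this length. The Meis core TGACAG lay in 9.52% of the Hox windows against 19.2% of all, and the joint Pbx and Hox core TGATTNAT in 9.52% against 3.22%. Hox windows held a median of 15 CG pairs and all windows a median of 7.

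Hoxa10, needed for hindlimb and lumbar patterning and active in osteoblast differentiation, read 9.71, 9.54 and 9.41 in osteoblast cultures 1 to 3. Its primary tumours ran from 3.66 through a median of 4.56 to 5.06, the lines 176, 179, 182 and 213 read 3.99, 4.77, 4.02 and 4.49, and secondary tumours 29, 64, 66 and 94 read 4.93, 4.74, 4.77 and 4.99. No tumour or line came within 4 log2 units of any culture. The primary tumours were lower by 5.01 on the log2 scale (SE 0.205, adjusted p = 8.37e-16 by limma over 12887 genes), a 32.1-fold difference. The lines fell by 5.24 (SE 0.247, adjusted p = 2.3e-14) and the secondary tumours by 4.70 (SE 0.247, adjusted p = 3.35e-13). In primary tumours of each control set alone the decrease was 4.85 and 5.14.

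Hoxa11, which with its Hoxd partner shapes the forearm and lower leg, read 8.79, 8.47 and 8.35 in the cultures. The primary tumours ran from 5.67 through 5.98 to 6.36, the lines lay between 5.84 and 6.21, and the secondary tumours read 5.87, 5.88, 6.63 and 5.99. The cultures did not overlap any other group, and the tumours differed little among themselves: the SD over primary tumours was 0.196, lower than that of all but 8.78% of tested genes. The difference from osteoblasts was -2.53 in primary tumours (SE 0.150, adjusted p = 2.33e-12), -2.54 in lines (SE 0.181, adjusted p = 2.23e-10) and -2.44 in secondary tumours (SE 0.181, adjusted p = 3.12e-10). Hoxa11os, the transcript read from the opposite strand at this locus, was lower too on 1 of its 2 probe sets, by 1.62 in primary tumours (adjusted p = 4.51e-05 over all probe sets), 1.33 in lines (0.00728) and 1.34 in secondary tumours (0.00283). Its other probe set was at the floor in all osteoblast cultures.

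Hoxa9, a gene of trunk and upper limb that is also used in blood cells, had 2 probe sets that disagreed in size. The one with the higher mean read 6.58, 6.33 and 6.54 in the cultures, 4.54 to 5.34 with a median of 4.86 in primary tumours, 5.64, 5.66, 5.45 and 5.14 in the lines and 5.18, 4.98, 5.11 and 5.05 in the secondary tumours. On it the cultures did not overlap any other group, with differences of -1.52 in primary tumours (SE 0.149, adjusted p = 1.84e-08), -1.01 in lines (SE 0.179, adjusted p = 0.000343) and -1.40 in secondary tumours (SE 0.179, adjusted p = 2.36e-06). The value for lines sits on the 2-fold limit and passed below it when arrays were scaled to a common 75th percentile (-0.83) or quantile normalized (-0.88), and without line 213 (-0.90), culture 1 (-0.96) or culture 3 (-0.98). The other probe set of Hoxa9 read 8.92, 8.90 and 8.56 in the cultures and between 3.64 and 4.26 in all 23 other samples. There the differences were -4.94 (adjusted p = 1.53e-18), -4.97 (9.15e-17) and -4.87 (1.45e-16) in the same order, so the gap at Hoxa9 depends on the probe set while its direction does not.

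Hoxa13, the gene of hand, foot and hindgut, was lower in primary tumours than in osteoblasts but not in the lines. The cultures read 5.62, 5.57 and 5.43, the primary tumours 3.64 to 5.58 with a median of 3.89, and the secondary tumours 4.22, 5.04, 3.93 and 3.78. In the lines it read 5.29, 6.15, 6.85 and 6.69, and only line 176 was below the cultures. Primary tumours differed from osteoblasts by -1.33 (SE 0.389, adjusted p = 0.00792), secondary tumours by -1.30 (SE 0.470, adjusted p = 0.0339) and lines by 0.70 (adjusted p = 0.34). Among primary tumours the value moved with the control set: it was at the floor in 6 of the 7 of one set and ran from 3.89 to 5.58 in the 8 of the other, and in those 8 alone the difference was -0.83 (adjusted p = 0.0741). With a floor at the 40th percentile it was -0.42 (0.0656). The call in secondary tumours did not survive leaving out any 1 culture (adjusted p up to 0.0893), and without secondary tumour 29 (0.0568), number 66 (0.0771) or number 94 (0.0891). With tumour number as a random replicate block it was -1.10 (adjusted p = 0.0736).

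**Figure D2:**
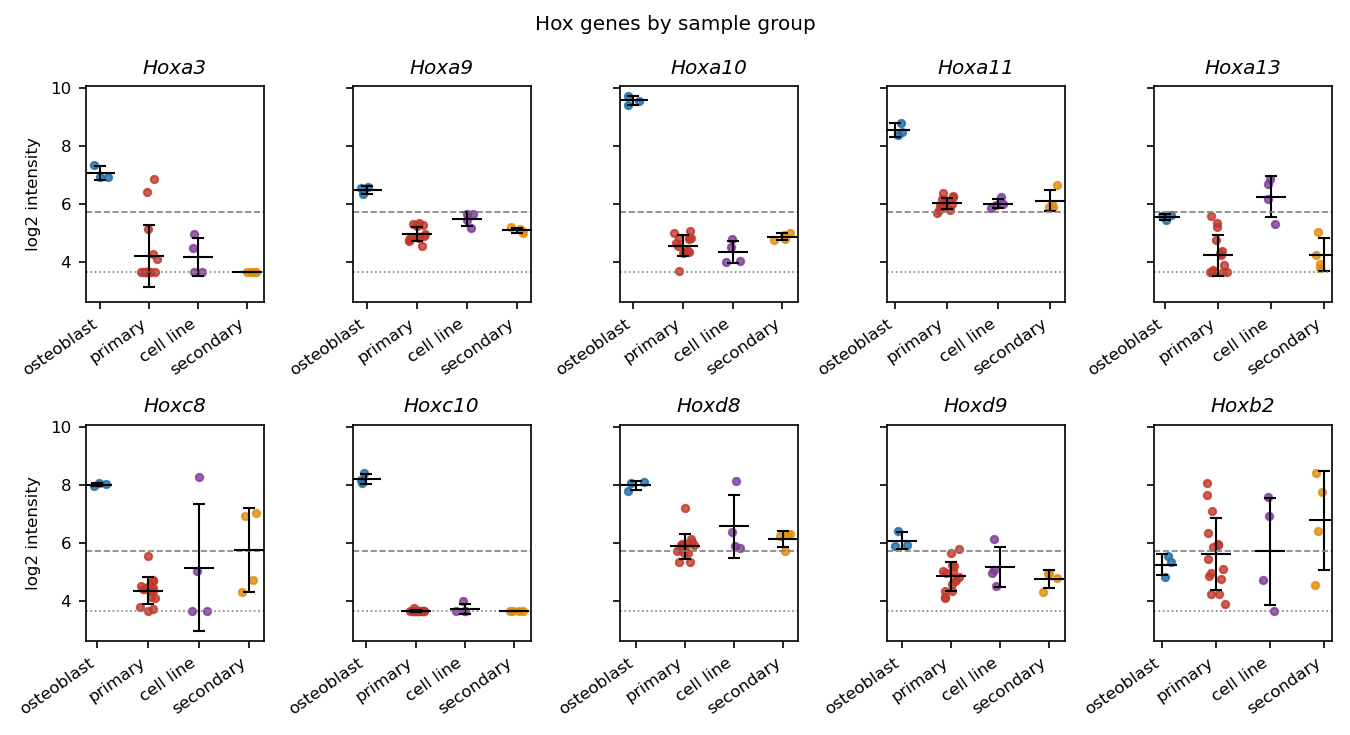
Log2 intensity of 10 Hox genes in each sample (points) by group, with the mean and SD of the group as a bar and whisker; the dotted line is the floor at 3.64 and the dashed line the median of all values at 5.72. Hoxa10 and Hoxc10 separate the osteoblast cultures from all 23 other samples, Hoxa13 is highest in the cell lines, and Hoxb2 spreads over 4.17 log2 units among primary tumours.

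At the other end of the cluster, Hoxa3, a gene of the neck and pharyngeal arches, read 6.90, 6.90 and 7.33 in the cultures. It was at the floor in 10 of 15 primary tumours, with 6.41 in tumour 87 and 6.87 in tumour 183, and in all 4 secondary tumours. The lines read 4.47, 3.64, 3.64 and 4.96. No tumour reached the lowest culture, though tumour 183 came within the cultures' own spread of it. Primary tumours were lower by 2.83 (SE 0.532, adjusted p = 0.000147) while the lines differed by -2.87 (SE 0.642, adjusted p = 0.00309). For the secondary tumours the decrease was at least 10.6-fold (adjusted p = 0.000254). Of its 3 other probe sets, 1 was also lower in primary and secondary tumours, by 1.58 (0.00134) and 1.61 (0.00704), and read 7.04 in line 213, above every culture.

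Hoxa7, a trunk gene, never reached the median of all values, and was lower in all 3 groups when no filter on dim genes was used. It read 5.05, 5.01 and 4.51 in the cultures and was at the floor in all 15 primary and all 4 secondary tumours and in 3 lines, with 4.35 in line 213. The difference was at least 2.32-fold in primary tumours (adjusted p = 4.05e-09) and in secondary tumours (1.46e-07), and -1.04 on the log2 scale in lines (2.67e-06). Hoxa5, which acts in lung and neck skeleton, did not pass the test on its chosen probe set, of a kind whose probes can match other transcripts: its values were 5.67 to 6.64 over all arrays, with -0.29 in primary tumours (adjusted p = 0.0747). Its other probe set read 5.48, 5.98 and 5.51 in the cultures and was lower by 1.84 in primary (adjusted p = 0.000961) and 1.88 in secondary tumours (0.00551). In lines that probe set differed by -0.97 (0.223), since line 213 read 7.06 and the other lines 4.40, 3.64 and 3.64. Hoxa2 and Hoxa4 were near the floor in most samples, and line 213 stood out again with 6.56 and 6.82.

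In the Hoxc cluster 2 of the 7 measured genes were lower in all 3 groups, Hoxc8 and Hoxc10. Hoxc10, a hindlimb and lumbar gene, read 8.15, 8.38 and 8.07 in the cultures, was at the floor in 14 of 15 primary tumours and all secondary tumours, and reached only 3.76 in tumour 353 and 3.97 in line 176. No tumour or line overlapped the cultures. The differences were -4.55 in primary tumours (SE 0.0844, adjusted p = 1.53e-23) and -4.48 in lines (SE 0.102, adjusted p = 1.97e-21), and the secondary tumours were at least 23.6-fold lower (adjusted p = 1.64e-21). With 14 of 15 primary tumours and 3 of 4 lines at the floor, the first 2 differences are bounds too. The small SEs and p-values rest largely on values tied at the floor. The paralogues Hoxa10 and Hoxc10 were thus both lower in every group, while Hoxd10 was dim: it read 4.90, 4.79 and 4.14 in the cultures and 3.64 to 3.94 elsewhere, and its difference of -0.93 in primary tumours (adjusted p = 8.26e-08 with no filter) was under 2-fold.

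Hoxc8, which patterns the thoracic skeleton and can act on osteoblast genes, read 7.96 to 8.04 in the cultures and 3.64 to 5.55 with a median of 4.40 in primary tumours. The primary tumours were lower by 3.65 (SE 0.617, adjusted p = 4.36e-05), and no primary tumour overlapped the cultures. Lines and secondary tumours were split. Line 176 read 8.26, above every culture, line 213 read 5.04, and lines 179 and 182 were at the floor; secondary tumours 29 and 64 read 6.93 and 7.02, and numbers 66 and 94 read 4.30 and 4.71. The lines differed from osteoblasts by -2.86 (SE 0.745, adjusted p = 0.00978) and the secondary tumours by -2.26 (SE 0.745, adjusted p = 0.0204). The call in lines was lost when only lines and osteoblasts were fitted (adjusted p = 0.0884). The call in secondary tumours was lost without any 1 osteoblast culture (adjusted p up to 0.0578) or without tumour 66 (0.0792) or 94 (0.0679). The remaining Hoxc genes, Hoxc4, Hoxc5, Hoxc6, Hoxc9 and Hoxc13, were not called against osteoblasts in any group, although Hoxc5 differed by -0.69 in primary tumours (adjusted p = 0.0484 with no filter), under 2-fold.

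In the Hoxd cluster, Hoxd8, a gene of the trunk, read 8.05, 8.07 and 7.78 in the cultures. The primary tumours ran from 5.32 through 5.89 to 7.19, the highest being number 330, and the secondary tumours read 6.30, 6.26, 5.73 and 6.24. The lines read 5.89, 6.38, 5.83 and, in line 213, 8.14, so line 213 overlapped the cultures and the other samples did not. Primary tumours differed by -2.09 (SE 0.326, adjusted p = 1.68e-05), secondary tumours by -1.84 (SE 0.393, adjusted p = 0.000871) and lines by -1.41 (SE 0.393, adjusted p = 0.0152). A second probe set gave -2.73, -2.57 and -2.43 in the same order (adjusted p = 0.000419, 0.00517 and 0.0173) and again its highest readings outside the cultures were line 213 (7.56) and tumour 330 (6.56). The call in lines was lost without osteoblast culture 1 or 2 (adjusted p = 0.0607 and 0.0636), without line 176 or 182 (0.0577 and 0.0599) and on both groups alone (0.0943).

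Hoxd9, which acts with its paralogues in the upper limb, read 5.93, 6.41 and 5.87 in the cultures and 4.08 to 5.77 with a median of 4.83 in primary tumours. The lines read 4.50, 5.05, 4.94 and 6.11 and the secondary tumours 4.29, 4.97, 4.93 and 4.78, so only line 213 overlapped the cultures. It was lower by 1.23 in primary tumours (SE 0.303, adjusted p = 0.00202; 0.90, under 2-fold, with a floor at the 40th percentile) and by 1.33 in secondary tumours (SE 0.366, adjusted p = 0.00665). In lines the difference was -0.92 (SE 0.366, adjusted p = 0.0931), and without line 213 it was -1.24 (adjusted p = 0.0202). Hoxd13, the digit gene of this cluster, read 6.79 to 6.98 in the cultures and 6.45 to 7.43 in primary tumours, a difference of 0.01 (adjusted p = 0.958). A second, dimmer probe set of Hoxd13 averaged 4.98 in the cultures, 4.32 in primary tumours, 5.51 in lines and 4.15 in secondary tumours.

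No Hoxb gene passed the limma test against osteoblasts in any group on its chosen probe set, and of the 9, 0, 2 and 1 had an unadjusted p under 0.05 in primary tumours, lines and secondary tumours. Hoxb3, a hindbrain and neck gene, read 7.18 to 7.29 in the cultures, 7.08 to 8.18 in primary tumours, 7.56 to 8.25 in lines and 6.89 to 8.02 in secondary tumours, with differences of 0.23 (adjusted p = 0.436), 0.66 (0.112) and 0.33 (0.376). A second probe set of Hoxb3 disagreed in lines, with -0.89 (adjusted p = 0.15), and gave 0.77 in primary tumours (0.0653) and 1.24 in secondary tumours, where it was called higher (0.0182, over all probe sets by limma). Hoxb2, which acts in the hindbrain and neural crest, had the widest range of any member among primary tumours. It read 5.32, 5.55 and 4.83 in the cultures and from 3.88 in tumour 29 through a median of 5.45 to 8.05 in tumour 64, with 7.63 in tumour 353 and 7.10 in tumour 182. The lines read 6.92, 3.64, 4.71 and 7.56 and the secondary tumours 4.55, 8.41, 6.39 and 7.75, so each group lay on both sides of the cultures. Its SD of 1.25 over primary tumours exceeded that of 97.4% of tested genes, whose median was 0.368, and Hoxa3, with 1.07, exceeded 95.8%. Its mean differed from osteoblasts by 0.38 in primary tumours (SE 0.811, adjusted p = 0.727), 0.47 in lines (0.797) and 1.54 in secondary tumours (0.229), and both control sets held high and low primary tumours, 3.88 to 8.05 and 4.24 to 7.63.

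By position, primary tumours were lower for 6 of 9 Hoxa genes, 0 of 9 Hoxb, 2 of 7 Hoxc and 2 of 8 Hoxd genes, all 33 being counted with no filter. By paralogue number, 8 of the 13 genes numbered 7 to 11 were lower, against 1 of the 15 numbered 1 to 6 and 1 of the 5 numbered 12 or 13; these bounds were chosen after the values were seen. The median log2 difference was -1.23 for paralogues 7 to 11 and -0.18 for paralogues 1 to 6, beside 0.00075 for all 18193 genes with no filter. Lines had 7 of 13 lower and secondary tumours 8 of 13 in the middle class, with 1 of 15 each in the first and 0 of 5 in the last. Within the middle class the Hoxb genes, Hoxb7 and Hoxb9, did not pass, and Hoxc9 and Hoxd11 were at or near the floor in every group. The plot of the differences by cluster and number shows low values at Hoxa7, Hoxa9 to Hoxa11, Hoxc8, Hoxc10, Hoxd8 and Hoxd9. Outside the middle class Hoxa3 is low as well, with -2.83 in primary tumours, -2.87 in lines and -3.41 in secondary tumours.

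**Figure D3:**
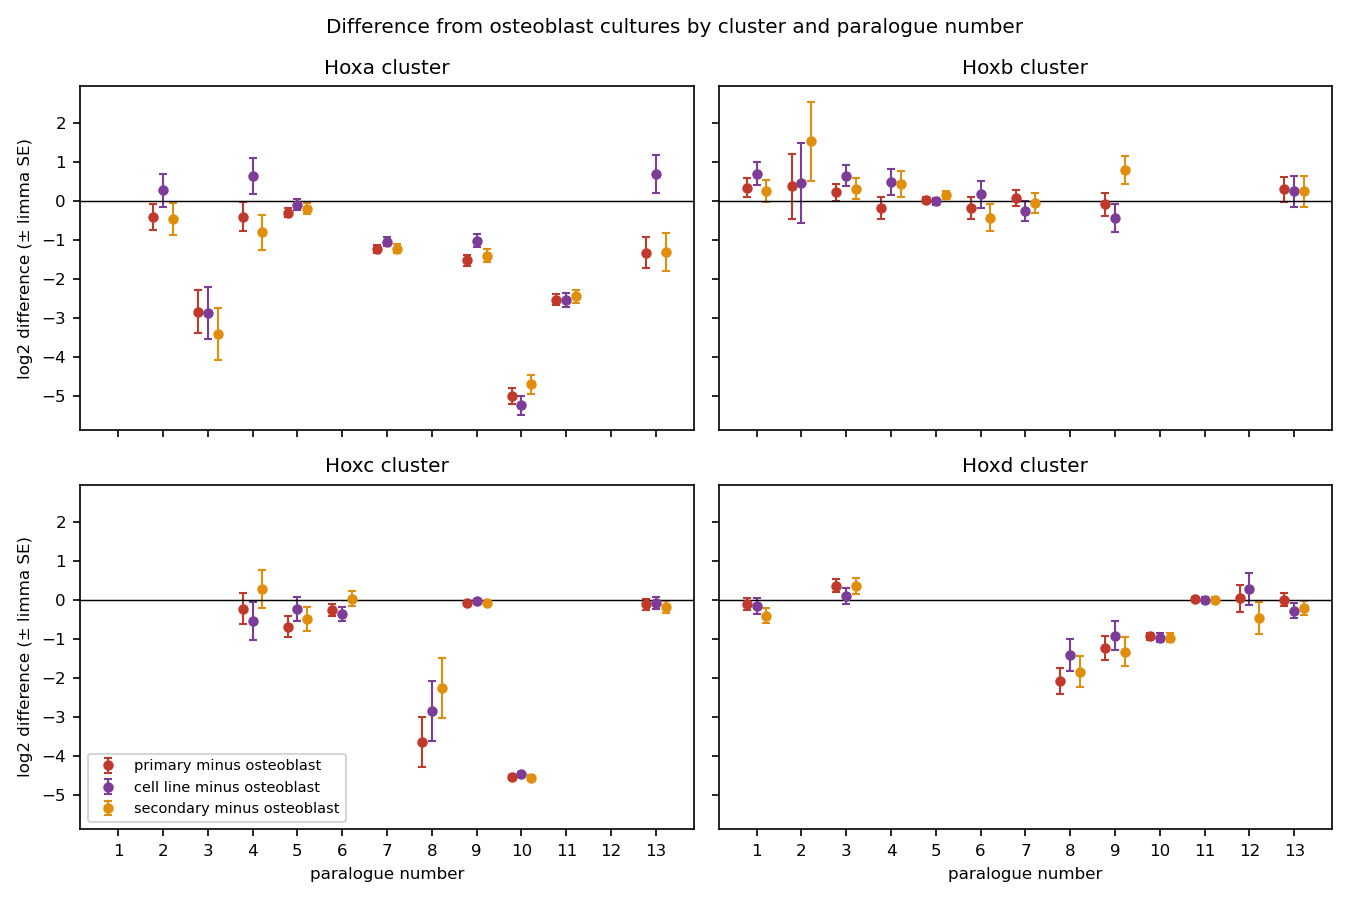
Log2 difference from the 3 osteoblast cultures (± limma SE) for each of the 33 Hox genes with no filter, by cluster (panels) and paralogue number (x axis), for primary tumours, cell lines and secondary tumours. The lowest points are Hoxa10 (-5.01, -5.24 and -4.70) and Hoxc10 (-4.55, -4.48 and -4.56). Hoxc8 (-3.65, -2.86 and -2.26) and Hoxa3 (-2.83, -2.87 and -3.41) also lie low, while Hoxb points lie around 0.

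Between lines and primary tumours, Hoxa13 was the only gene of the 15 called on its chosen probe set. It was higher in lines by 2.03 (SE 0.346, adjusted p = 8.61e-05), where 11.7% of genes differed and 4.72% were higher. It passed the filter only through 3 lines, so a difference was likely by construction. Against the 8 primary tumours of the lines' own control set the difference was 1.54 (adjusted p = 0.00226), and against the other 7 it was 2.59 (6.76e-07). Lines 176, 179 and 182 each read higher than the primary tumour of their number, by 0.56 to 2.10. With no filter, where 3.39% of all genes were higher, Hoxa4 was also higher, by 1.05 (adjusted p = 0.0216), which rests on 6.82 in line 213 beside 3.64, 5.05 and 4.85 in the others. Hoxa4 moved with the control set too: it averaged 5.09 in lines, 4.36 in the 8 primary tumours of their set and 3.68 in the other 7. Of the 15 Hox probe sets not chosen, tested with no filter, 2 were called higher and 1 lower in lines than in primary tumours. The counts were the same against secondary tumours. A second probe set of Hoxb3 averaged 5.38 in lines and 7.05 in primary tumours, while the chosen one averaged 7.91 and 7.48. Against secondary tumours, with lines and secondary tumours in different control sets, Hoxa13 was again the 1 gene of the 15 called on its chosen probe set, higher in lines by 2.00 (SE 0.435, adjusted p = 0.00146), where 13.2% of genes differed and 4.77% were higher. With tumour number as a fixed replicate block the Hoxa13 value was 0.61 (adjusted p = 0.406) and no Hox gene was called by limma. That fit left out line 213 and the primary tumours whose number no other sample carries. No line shares a number with a secondary tumour, so each kind's difference from its own primary tumours was compared. The value is therefore not the same quantity as 2.00.

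Line 213 differed from the other lines in many Hox genes. It had the highest reading of the 4 lines for 15 of the 33 genes, among them Hoxa2, Hoxa3, Hoxa4, Hoxa7, Hoxd8, Hoxd9 and 7 Hoxb genes, but not for Hoxa10, Hoxa11, Hoxc8 or Hoxc10. Line 176 instead had Hoxc8 at 8.26 and Hoxc4 at 6.42, where primary tumour 176 read 3.78 and 5.49. Hoxb4 read 5.27 in line 176, above the 3.64 of primary tumour 176 and below the 5.47 of line 213. Over the 15 filtered genes, line 176 was farther from its own primary tumour than from any of the other 14, with a root mean square difference of 1.44, and lines 179 and 182 ranked theirs the 3rd and 8th closest. Across all tested genes the deviations of these lines correlated little with those of the same-numbered primary tumours, by 0.035, 0.081 and 0.039. Whether each line stems from the tumour of its number was not tested.

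Secondary tumours did not differ from primary tumours in any Hox gene after adjustment by limma. Of the 15 genes 1, Hoxc8, had an unadjusted p under 0.05 (1.39 higher, p = 0.0178, adjusted p = 0.465 by limma), and only 0.00776% of all genes were called. With no filter 5 of 33 did, and none was called, beside 0.0055% of all genes. Here same-numbered samples were alike over all genes, with deviations correlated by 0.449, 0.302, 0.224 and 0.642 for tumours 29, 64, 66 and 94. Hoxb2 read higher in the secondary tumour of all 4 pairs, by 0.36 to 1.55, as did Hoxa13, by 0.05 to 1.40, while Hoxd1 read lower in all 4, with differences of -0.75 to -0.29. The Gapdh 5′ to 3′ ratio was also higher in the secondary tumour of all 4 pairs. It was 1.077, 0.9195, 0.8387 and 0.9037 in secondary tumours 29, 64, 66 and 94, against 0.8096, 0.755, 0.6562 and 0.7365. Its part in these differences was not tested. Hoxb2 kept the order of the primary tumours: 3.88, 4.84, 6.32 and 8.05 in primary tumours 29, 66, 94 and 64 became 4.55, 6.39, 7.75 and 8.41. The group difference in Hoxb2 was 1.16 (SE 0.722, adjusted p = 0.609). Hoxc8 read 2.49 and 2.30 higher in secondary than in primary tumour 29 and 64 and differed by -0.04 and 0.59 in numbers 66 and 94. By Hox genes alone, secondary tumour 64 was closest to its own primary tumour of 15, number 94 ranked its own 2nd, number 66 3rd and number 29 5th.

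**Figure D4:**
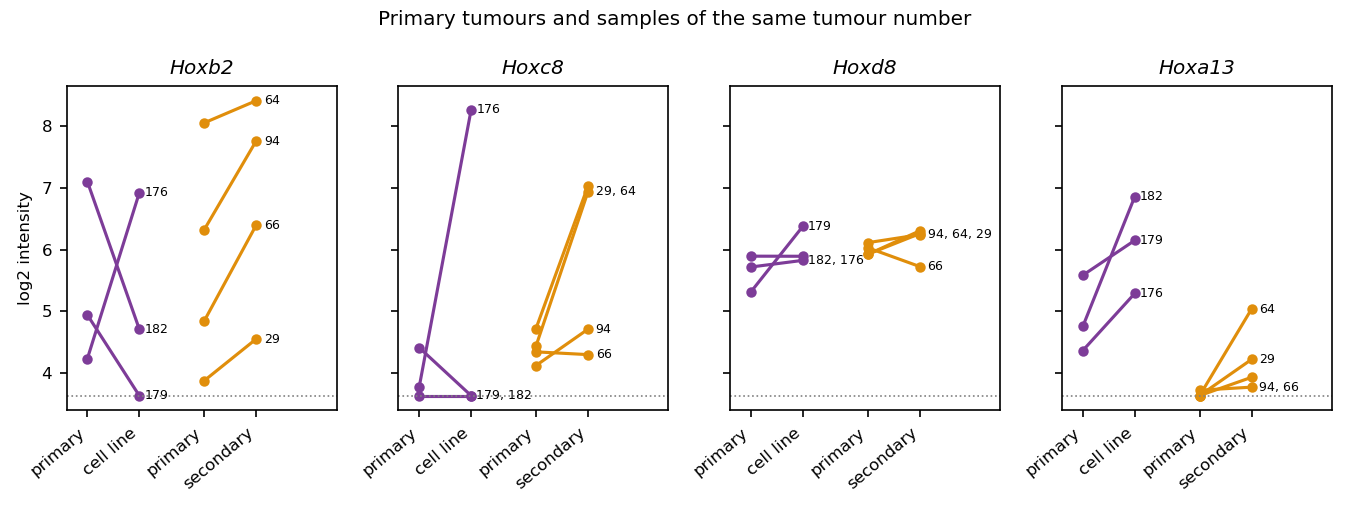
Log2 intensity of 4 Hox genes in primary tumours and in the cell line (purple) or secondary tumour (orange) of the same number, joined by lines and labelled by number; the dotted line is the floor at 3.64. Hoxb2 is higher in all 4 secondary tumours than in their primary tumours and goes both ways in lines, Hoxc8 is up in line 176 and secondary tumours 29 and 64, and Hoxa13 is higher than in the primary tumour in all 3 lines (by 0.56 to 2.10) and all 4 secondary tumours (by 0.05 to 1.40).

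Genes beside the clusters were called about as often as all genes in primary tumours. Of 14 tested genes that flank a Hox cluster, 2 were lower in primary tumours and 0 higher, where 11.9% and 6.58% of all genes were: Skap2, an adaptor gene at the low-numbered end of Hoxa, with a difference of -1.72 (SE 0.413, adjusted p = 0.0017), and Hibadh, a valine-breakdown enzyme gene beyond the high-numbered end, with -1.07 (SE 0.130, adjusted p = 5.94e-07). Skap2 was lower by 1.51 in secondary tumours (adjusted p = 0.0208), and none of the 14 was called in lines by limma, where 3 had an unadjusted p under 0.05. The list's median difference in primary tumours was -0.28, beside -0.065 for all tested genes.

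Among the homeodomain partners that bind DNA with Hox proteins, 7 of 9 were tested. Against osteoblasts Meis2 alone was called, lower in primary and in secondary tumours but not in lines. Of all tested genes 11.9%, 10.8% and 6.64% were lower in primary tumours, secondary tumours and lines. Meis2 read 8.29, 8.20 and 8.13 in the cultures, 5.06 to 8.48 with a median of 6.24 in primary tumours, 8.03, 7.24, 7.46 and 8.26 in lines and 5.26, 7.16, 5.78 and 5.75 in secondary tumours. Primary tumours 176 and 330 lay at or above the cultures and the other 13 below. It differed by -1.84 in primary (SE 0.580, adjusted p = 0.0129) and by -2.22 in secondary tumours (SE 0.700, adjusted p = 0.0158), and higher in lines than in primary tumours by 1.38 (adjusted p = 0.038). Meis1 differed from osteoblasts by 0.50 in primary tumours (adjusted p = 0.0592), -0.16 in lines (0.726) and 0.42 in secondary tumours (0.202).

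Regulators of the clusters' chromatin were counted beside all tested genes, of which 18.5%, 8.22% and 18.5% were called in primary tumours, lines and secondary tumours. Of 17 tested Polycomb genes, which keep Hox genes silent, 1 was lower and 0 higher in primary tumours: Eed, a core subunit of the complex that methylates histone H3, by 1.02 (adjusted p = 0.000129). In lines the chromobox gene Cbx2 was higher by 1.11 (0.00227) and Jarid2, which helps recruit the same complex, lower by 1.19 (0.00447). In secondary tumours Ezh2, its catalytic subunit, was higher by 1.53 (0.000704) and Eed lower by 1.03 (0.00129). None of 10 Trithorax and other activating genes was called by limma in any of these 3 comparisons, while 5, 3 and 3 had an unadjusted p under 0.05 in primary tumours, lines and secondary tumours. Of 10 tested genes that set Hox domains in the embryo, 3 were higher and 1 lower in primary tumours: the limb factor Hand2 by 2.11 (0.0117), the retinoic acid receptor Rarb by 1.49 (0.018) and the signal Shh by 1.03 (0.000578), against Cyp26b1, which breaks down retinoic acid, by -1.27 (0.0492). Lines had Cyp26b1 alone, lower by 5.09 (2.26e-06), and secondary tumours had Hand2 (2.66), Rarb (2.00) and Rarg (1.05) higher and Cyp26b1 lower (-1.75).

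Transcription factors that mark limb or skull were also measured. Of 11 tested, 4 were lower and 2 higher in primary tumours, 2 lower in lines, and 4 lower and 4 higher in secondary tumours, beside the 18.5%, 8.22% and 18.5% of all genes called either way. Tbx4, a hindlimb factor, read 8.21, 8.27 and 8.05 in the cultures, was at the floor in 10 of 15 primary tumours and reached 6.34 in tumour 12. It read 3.64, 3.64, 3.70 and 4.82 in the lines and 3.64, 3.64, 5.02 and 3.64 in the secondary tumours, and was lower by 4.24 in primary tumours (SE 0.402, adjusted p = 1.05e-08), 4.22 in lines (9.19e-07) and 4.19 in secondary tumours (5.5e-07). Its forelimb counterpart Tbx5 never reached the median of all values and was at the floor in all cultures and secondary tumours. In Tbx4 the cultures did not overlap any other group, as with Hoxa10 and Hoxc10.

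Pitx1, which acts upstream of Tbx4 in the hindlimb, read 8.57, 8.23 and 8.29 in the cultures and 5.28 to 7.82 with a median of 5.83 in primary tumours. It was lower by 2.40 in primary (SE 0.457, adjusted p = 0.000171) and 2.64 in secondary tumours (0.000708), and differed by -1.49 in lines (0.0699), where lines 179 and 182 read 7.78 and 8.07. Emx2, a shoulder blade factor, read 7.44, 7.30 and 7.18 in the cultures, 3.64 to 4.56 in primary tumours and between 3.80 and 4.25 in the secondary ones, while lines 179, 182 and 213 read 7.28, 7.30 and 7.90 and line 176 read 3.90. Alx1, a factor of the face and skull, went the other way. It read 3.64, 3.68 and 3.64 in the cultures and 4.34 to 10.35 with a median of 8.12 in primary tumours, 7.19, 5.22, 5.22 and 5.80 in lines and 7.11 to 9.33 in secondary tumours. The difference was 4.14 in primary tumours (SE 1.01, adjusted p = 0.00192), 4.96 in secondary tumours (0.0029) and 2.21 in lines (0.235). Primary tumours 183, 188 and 330 had the lowest Alx1 of that group, at 4.62, 4.34 and 4.84.

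**Figure D5:**
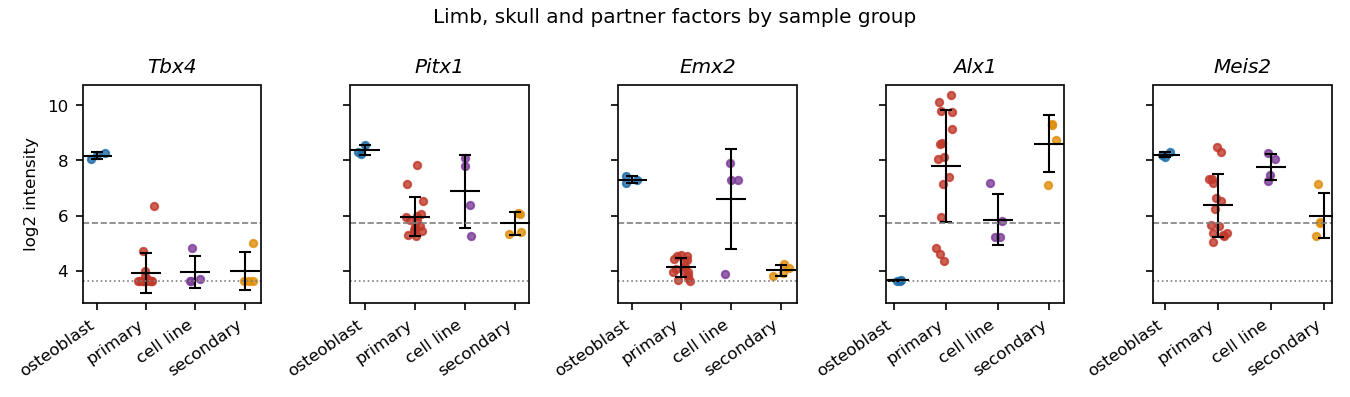
Log2 intensity of the limb factors Tbx4, Pitx1 and Emx2, the skull factor Alx1 and the Hox partner Meis2 in each sample (points) by group, with the group mean and SD; the dotted line is the floor at 3.64 and the dashed line the median of all values at 5.72. Tbx4 is high only in the osteoblast cultures (8.05 to 8.27), Emx2 is high in the cultures and in 3 of 4 lines, and Alx1 is near the floor in the cultures and reaches 10.35 in a primary tumour.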

How the data were processed

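Per the labels' protocols, RNA was copied into biotin-labelled cRNA and hybridised to 1-colour arrays of 45101 probe sets. The authors deposited linear intensities per probe set; how they were summarised and scaled is not given in the sources used here. Array medians all lay between 44.4 and 58.8, though lower in osteoblasts and lines than in tumours. Values were used as deposited, set to at least the 20th percentile of all values (12.5) and taken to log2, the scale of all values printed from the deposited intensities. Probe sets were named from the platform annotation, with symbols updated through RefSeq (GRCm38.p6). Probe sets above the median (52.6) on at least 3 arrays passed the filter, and the one of highest mean stood for its gene, which gave 12887 genes. All 26 arrays entered 1 limma model (limma 3.58.1, R 4.3.3) with no covariate; a gene was called at a Benjamini-Hochberg adjusted p below 0.05 and a 2-fold change. The scripts were tested on simulated data. The number of arrays limits the precision.

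The members and the gene lists were chosen with earlier results of these data known. Values by sample are given for Hox genes called in any comparison or spanning at least 3 log2 units among primary tumours; of each list, at most the 4 largest calls per comparison are named, and Meis1, Meis2, Tbx4, Tbx5, Pitx1 and Alx1 always. Hoxa7, Hoxa4, Hoxa5, Hoxa2 and Hoxd10, and the paralogue classes, were singled out after their values were seen. Same-numbered samples were checked for pairing by correlating their deviations from the group means: secondary tumours correlated by 0.224 to 0.642 with their primary tumour, lines by 0.035 to 0.081. Alternatives covered scaling, floor, filter, probe set choice, arrays fitted, weights, control set, replicate block and each array left out; all probe sets tested separately was added after the data were seen.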

Additional observations from a re-analysis of the deposited data

Results flagged for a closer look

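Cell line 213 stood apart from the other 3 lines in Hoxa2 (6.56 against 3.64) and in Hoxb13, a gene of the tail end of the trunk (4.68 against 3.64). Secondary tumour 64 stood apart from the other 3 secondary tumours in Hoxb13 (4.68 against 3.64). In each case the other 3 samples all lay at the floor, so any single value above it would stand apart, and Dixon's critical value, by which these were picked out, has no meaning as a test here. Of 22 groups of 4 samples looked at in this way 3 were picked out, 2 of them by line 213; the usual chance rate of 1 in 20 does not hold for values tied at the floor.

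Hoxb9, a thoracic gene, differed in direction between lines and secondary tumours. The 3 lines with a primary tumour of their number all read below it, by a mean difference of -0.36, and all 4 secondary tumours above theirs, by 1.02. That difference was not tested on the pairs.

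A probe set of Hoxb3 that was not the one followed in the report read 7.52 on average in secondary tumours, each above every osteoblast culture (mean 6.27, highest 6.78); the difference was 1.24 (adjusted p = 0.0182 by limma over all probe sets).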

How the results depend on the processing

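No direction reversed among 30 results for single Hox genes. These were taken because they were called in the main fit or in an alternative, so a reversal was unlikely by selection. Outside them probe sets could differ in direction: the chosen one of Hoxb3 averaged 7.91 in lines and 7.25 in osteoblasts, and a second 5.38 and 6.27. Of the alternatives other than leaving out an array, 299 kept the call, 14 lost it and 1 gained it; of those that left out 1 array, 759 kept it, 18 lost it and 3 gained it. Counts of Hox genes called ranged, with 1 array left out, over 9 to 9 in primary tumours, 5 to 7 in lines and 7 to 9 in secondary tumours against osteoblasts, 1 to 1 in lines against primary tumours, 0 to 0 in secondary against primary tumours and 1 to 3 in lines against secondary tumours, with 3 reached without line 176, when Hoxc4 (-1.30) and Hoxc8 (-1.64) joined Hoxa13. For lines against primary tumours the count of 1 became 2 with no filter (33 Hox genes tested in place of 15), 0 with a filter at the 75th percentile (8 tested) and 5 with every probe set tested. For lines against secondary tumours it became 3, 0 and 6 under the same settings, 2 with array weights and 0 with tumour number as a fixed replicate block, under which Hoxa13 was higher by 0.61 (adjusted p = 0.406). Lines were matched to primary tumours by their number alone, and whether each line stems from that tumour was not tested. With the number as a random replicate block (consensus correlation 0.352) the Hoxa9 difference in lines fell just short of 2-fold and Hoxa13 in secondary tumours -1.10 (adjusted p = 0.0736); the block changed no other Hox call and called none between secondary and primary tumours. Counting Hox genes above the 75th percentile in place of the median gave medians of 5 per osteoblast array, 1 per primary tumour, 1.5 per line and 1 per secondary tumour. Hoxd8 in lines lost its call under quantile normalization (-1.14, adjusted p = 0.0502). The cause of the changes under the other settings was not tested.

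Between 18.6% and 23.3% of values per array lay at the floor, so many Hox values are bounds. Only 3 osteoblast cultures stand behind every comparison with them, and they form a control set of their own.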
